A study of Homo sapiens with 9 samples.

Results

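Collagens are the triple-helical proteins of the extracellular matrix, and each gene of the family encodes 1 chain of a trimer. Fibrillar collagens (types I, II, III, V, XI, XXIV and XXVII) form the banded fibrils of connective tissue, and type IV chains form the sheet-like network of basement membranes. FACIT collagens (fibril-associated collagens with interrupted triple helices, among them types IX, XII, XIV and XVI) sit on the surface of fibrils, while type VI makes beaded microfilaments and the multiplexins (types XV and XVIII) lie at basement membrane zones. In gut muscle, interstitial cells of Cajal and fibroblast-like cells are embedded in such a matrix.

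The collagen genes were taken as all rows of the expression table whose symbol has the form COL, a number, A and a number, which left out 6 rows for antisense RNAs, pseudogenes and COL4A3BP. There were 44 of them among 23610 genes: 11 fibrillar, 6 basement membrane, 10 FACIT and 17 other collagens. They were measured by RNA-seq of polyA RNA in GIST-T1, an established human line grown out of a gastrointestinal stromal tumour (GIST). The 9 libraries comprised 3 with an sgRNA against HAND1, a basic helix-loop-helix transcription factor, 3 with an sgRNA against ETV1, an ETS transcription factor, and 3 with an sgRNA against Luciferase as the control. The labels call the sgRNAs a knockdown, and the sgRNA sequences, the effector and the time of harvest are not given in them. The labels name no separate cultures behind the 3 replicates of each group, so the p-values reflect variation among these libraries only, and part of it may be technical.

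Values are FPKM (fragments scaled by transcript length and library size), which allow levels of different genes to be compared within a library. HAND1 was at 37.6, 40.8 and 36.5 FPKM in the HAND1 sgRNA libraries, against 116, 114 and 114 FPKM in the Luciferase sgRNA libraries. ETV1 was at 10.9, 12.03 and 11.2 FPKM in the ETV1 sgRNA libraries, against 42.2, 39.4 and 37.4 FPKM in the Luciferase sgRNA libraries. Each targeted transcript was thus lower in its own libraries. The other factor was not lower: HAND1 was at 134, 133 and 129.7 FPKM with ETV1 sgRNA, and ETV1 at 40.8, 39.8 and 41.8 FPKM with HAND1 sgRNA. All 8 GIST markers examined, which include the targeted HAND1 and ETV1, had a mean of at least 1 FPKM over the 9 libraries. Among them were KIT at a mean of 192 FPKM and ANO1 at 169 FPKM. KIT was at 156, 159 and 165 FPKM with HAND1 sgRNA, below the 216, 215 and 196 FPKM with Luciferase sgRNA. For ANO1 the libraries of these groups overlapped. Of the markers of blood and endothelial cells 5 of 6 had a mean below 1 FPKM, with CD68 at 5.05 FPKM as the exception, and of the epithelial markers 5 of 5 did. Luciferase sgRNA replicate 3 stood apart: short transcripts (under 1000 nt, 285 genes) were higher there than in the rest of its group, by a median log2 difference of 0.49. Transcripts of at least 5000 nt (3144 genes) were lower there, at a median log2 difference of −0.079 from the rest of its group. The tested collagen genes, whose longest annotated transcripts all exceed 1000 nt, lay 0.02 (log2, median of 19) above the rest of the group.

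Short stretches upstream of 4 collagen genes or gene pairs that the results turn on are given first, as listed by RefSeq on GRCh38.p14, which is not the build named for the expression table. COL4A1 and COL4A2 are transcribed away from each other, and their listed starts on chromosome 13 are 127 bases apart. The whole stretch between these starts (chr13:110307158-110307283, plus strand, leading into COL4A2) is shown because both genes rose with HAND1 sgRNA. COL15A1 (chr9:98943657-98943906, plus strand) and COL12A1 (chr6:75206054-75206303, minus strand) are shown for the largest log2 rises over Luciferase sgRNA among collagens with a mean of at least 1 FPKM. The rise of COL15A1 was with HAND1 sgRNA and that of COL12A1 with ETV1 sgRNA. COL16A1 (chr1:31704018-31704267, minus strand) is shown as the FACIT gene of that set that rose most with HAND1 sgRNA. Each of these 3 runs 5′ to 3′ over the 250 bases before the listed start. Capitals mark matches, on either strand, to CANNTG (the E-box bound by basic helix-loop-helix factors), CCGGAA (an ETS core with its flank), TATAAA (the TATA box), CCAAT (the CCAAT box) and GGGCGG (the GC box).
COL4A1 and COL4A2: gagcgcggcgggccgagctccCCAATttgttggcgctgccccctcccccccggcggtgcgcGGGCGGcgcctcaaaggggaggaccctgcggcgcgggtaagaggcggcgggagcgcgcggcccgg
COL15A1: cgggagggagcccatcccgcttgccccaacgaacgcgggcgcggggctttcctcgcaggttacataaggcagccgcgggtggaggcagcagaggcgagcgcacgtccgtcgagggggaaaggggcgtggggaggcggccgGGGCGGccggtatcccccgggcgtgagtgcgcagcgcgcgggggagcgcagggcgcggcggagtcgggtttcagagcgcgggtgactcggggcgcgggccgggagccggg
COL16A1: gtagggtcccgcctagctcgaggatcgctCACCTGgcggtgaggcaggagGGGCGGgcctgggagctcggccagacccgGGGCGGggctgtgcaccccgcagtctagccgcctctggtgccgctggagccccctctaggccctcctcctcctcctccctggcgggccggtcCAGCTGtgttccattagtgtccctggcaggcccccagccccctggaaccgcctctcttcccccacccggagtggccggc
COL12A1: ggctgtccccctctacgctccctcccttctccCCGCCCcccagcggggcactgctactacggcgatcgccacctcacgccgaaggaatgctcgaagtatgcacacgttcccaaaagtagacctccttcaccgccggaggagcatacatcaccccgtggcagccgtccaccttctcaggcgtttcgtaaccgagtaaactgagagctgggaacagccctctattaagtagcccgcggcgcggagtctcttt

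The stretch between COL4A1 and COL4A2 held 1 CCAAT and 1 GGGCGG, which 21.1% and 34.6% of 35116 promoter windows of the same 126 bases hold. COL15A1 and COL12A1 held 1 GGGCGG each (COL12A1 on the opposite strand), against 42.6% of windows of 250 bases. COL16A1 held 2 CANNTG and 2 GGGCGG, and CANNTG occurs in 61.8% of such windows. None of the 4 stretches held CCGGAA or TATAAA, which 14.5% and 10.7% of the windows of 250 bases hold. For windows of 126 bases, the length of the COL4A1 and COL4A2 stretch, these shares are 10.1% and 5.87%. The motifs searched do not overlap in these stretches, and a match is a run of letters, not a measured binding site.

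Among the collagen genes of GIST-T1, COL3A1, the chain of type III collagen, had the highest level. Of the 44 genes, 19 had a mean of at least 1 FPKM over the 9 libraries and were tested: 5 of 11 fibrillar, 3 of 6 basement membrane, 5 of 10 FACIT and 6 of 17 other genes. The remaining 25 had a mean below 1 FPKM, 21 of the 44 never reached 0.5 FPKM in any library, and COL11A2 was listed at 0 in all 9. The levels of all members by class show a wide gap below the expressed genes in the fibrillar and basement membrane classes.

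**Figure D1:**
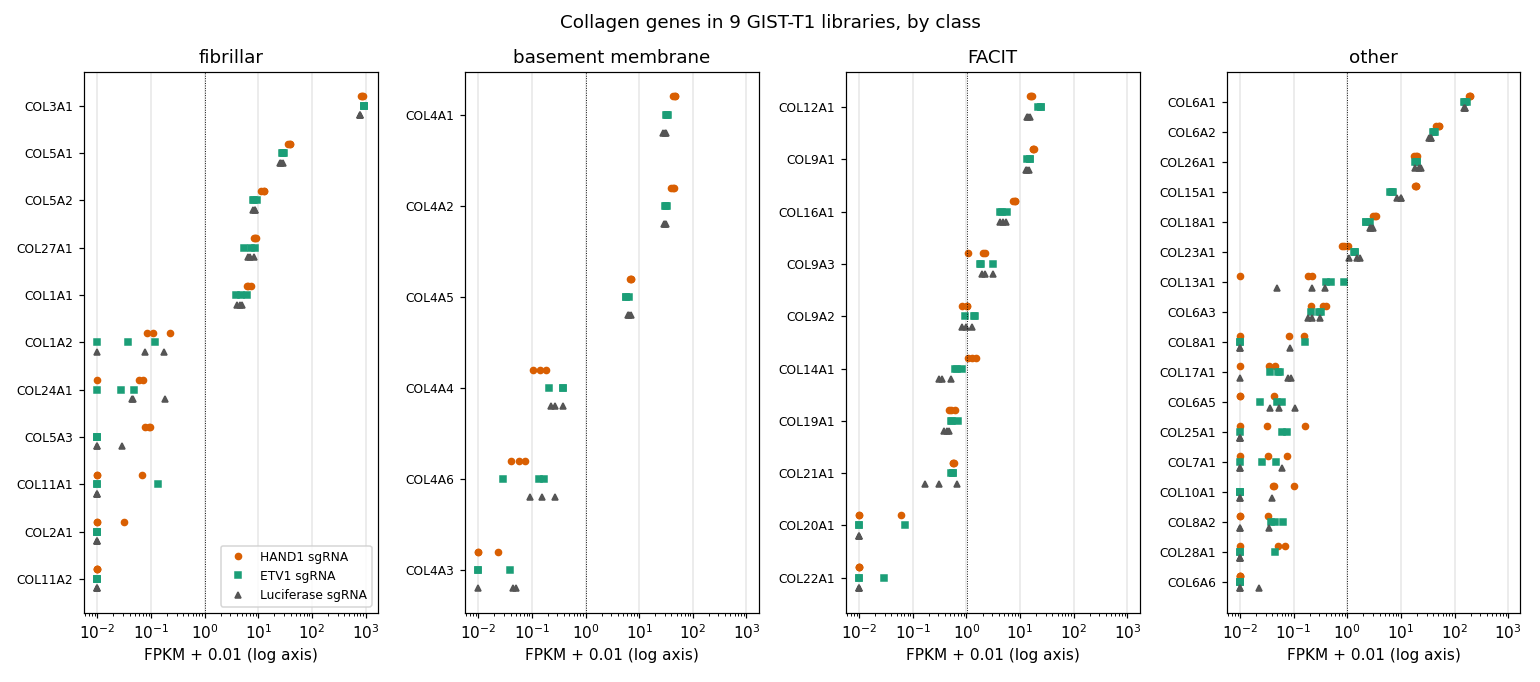
FPKM of all 44 collagen genes in each of the 9 libraries, plotted as FPKM + 0.01 on a log axis and ordered by mean within each class, with HAND1 sgRNA (circles), ETV1 sgRNA (squares) and Luciferase sgRNA (triangles). The dotted line marks 1 FPKM, the mean above which a gene was tested, and points at the left edge are values of 0.

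COL3A1 was at 839.9, 824 and 881 FPKM with HAND1 sgRNA, 951, 945 and 947 FPKM with ETV1 sgRNA and 784, 776 and 777 FPKM with Luciferase sgRNA. It made up 67.0% of the summed collagen FPKM (mean over the 9 libraries). COL6A1, a type VI chain, followed with 13.1% at a mean of 168 FPKM. COL6A2, COL4A1, COL4A2 and COL5A1 had means of 41.9, 36.1, 34.9 and 31.4 FPKM. The libraries did not overlap between the 3 groups for COL3A1, and the group order was ETV1 sgRNA highest, then HAND1 sgRNA, then Luciferase sgRNA.

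The remaining tested genes had means between 19.7 FPKM (COL26A1) and 1.07 FPKM (COL9A2, a type IX chain). Among them were COL12A1 (17.9 FPKM) and COL9A1 (15.3 FPKM) of the FACIT class, COL15A1 (11.7 FPKM), and the fibrillar chains COL5A2 (9.81 FPKM) and COL27A1 (7.72 FPKM). COL4A5, COL16A1 and COL1A1 lay at means of 6.48, 5.83 and 5.35 FPKM. COL18A1 and COL9A3, at 2.80 and 2.16 FPKM, have exons that overlap in position with exons of SLC19A1 (27.2 FPKM) and TCFL5 (10.6 FPKM). SLC19A1 and TCFL5 lie on the opposite strand in the GENCODE 29 annotation. The library kit did not keep strand, so the values of COL18A1 and COL9A3 are uncertain. COL4A2, COL9A1, COL15A1 and COL16A1 also overlap antisense RNAs there. Of these, COL4A2-AS1, was listed at 0 in every library, and no value of the others is used here.

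Chains that assemble with each other in tissue were not all present at like levels. COL1A1 was detected in every library, while COL1A2, its partner in type I collagen, was at 0.0987, 0.0746 and 0.211 FPKM with HAND1 sgRNA, at 0.108, 0.0280 and 0 FPKM with ETV1 sgRNA and at 0, 0.163 and 0.0666 FPKM with Luciferase sgRNA. The ratio of COL1A2 to COL1A1 was at most 0.0339 in any library. COL6A3, the large chain of the type VI trimer, stayed between 0.172 and 0.384 FPKM over the 9 libraries, and its ratio to COL6A1 was between 0.00108 and 0.00202. So COL1A2 and COL6A3 were near the bottom of the scale in libraries where COL1A1 and COL6A1 were expressed.

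COL4A1 and COL4A2, the chains of the common type IV trimer, were nearly equal. The ratio of COL4A2 to COL4A1 averaged 0.935 ± 0.0304 with HAND1 sgRNA, 0.958 ± 0.0780 with ETV1 sgRNA and 1.03 ± 0.0545 with Luciferase sgRNA (SD, n = 3 each). The other type IV chains are expressed from further divergent pairs: COL4A5 lay at a mean of 6.48 FPKM and its neighbour COL4A6 at 0.104 FPKM, while COL4A3 and COL4A4 lay at 0.0129 and 0.243 FPKM. COL5A2 over COL5A1, the chains of type V collagen, which starts fibril assembly, averaged 0.325 ± 0.0124 with HAND1 sgRNA, 0.301 ± 0.0279 with ETV1 sgRNA and 0.308 ± 0.0194 with Luciferase sgRNA. COL6A2 over COL6A1 averaged 0.257 ± 0.0146 with HAND1 sgRNA, 0.261 ± 0.0197 with ETV1 sgRNA and 0.226 ± 0.0130 with Luciferase sgRNA. For type V the ratios overlapped between all groups. For type IV, the HAND1 sgRNA libraries (highest 0.957) lay below the Luciferase sgRNA libraries (lowest 0.968), and the ETV1 sgRNA libraries overlapped with both. For type VI, every library of HAND1 and of ETV1 sgRNA (lowest 0.240) lay above the Luciferase sgRNA libraries (highest 0.237), and both of these gaps were smaller than the spread within each group.

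**Figure D2:**
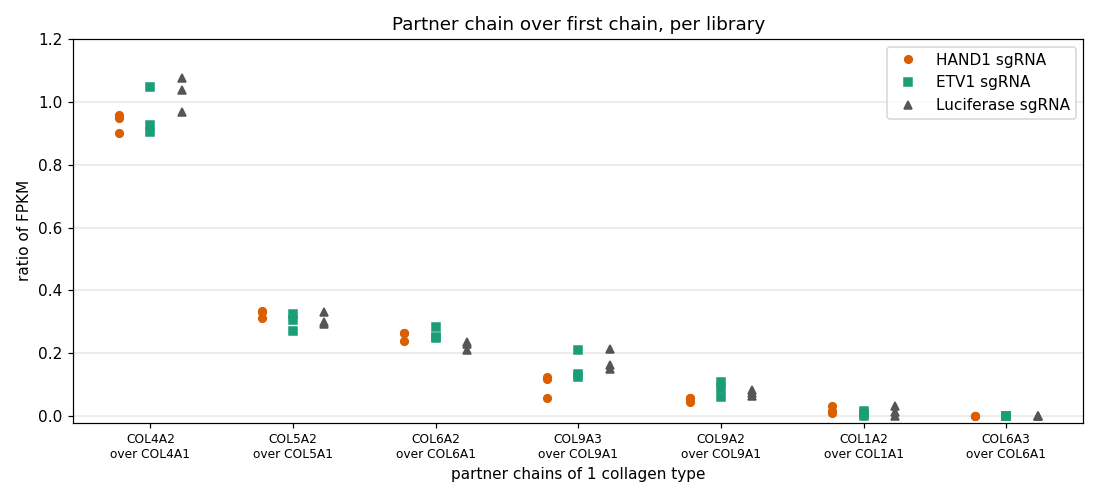
Ratio of the FPKM of partner chains within 1 library, for 7 pairs of collagen chains, with 1 point per library and the groups HAND1 sgRNA, ETV1 sgRNA and Luciferase sgRNA side by side. COL4A2 over COL4A1 lies between 0.901 and 1.08, while COL1A2 over COL1A1 and COL6A3 over COL6A1 lie at or near 0.

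HAND1 sgRNA was first compared with Luciferase sgRNA, to see how collagen transcripts differ when HAND1 is targeted. Collagens of every class were higher: 9 of 19 tested genes rose and 0 fell, with log2 fold changes (of FPKM + 1) between 0.31 and 0.92. The fold of mean FPKM for these 9 genes ran from 1.24 to 1.99. They were COL5A1 and COL5A2 (fibrillar), COL4A1 and COL4A2 (basement membrane), COL9A1 and COL16A1 (FACIT), and COL6A1, COL6A2 and COL15A1 (other). Each of the 9 was at 4.19 FPKM or more in all 9 libraries, so none passed the filter through 1 group alone. A gene was called at an adjusted p under 0.05 in limma, and over all 11348 genes tested 6.6% were called, 3.67% higher and 2.93% lower. At an unadjusted p under 0.05, which 20.3% of all genes met, 10 of the 19 collagens were higher and 1 lower. Each of the 9 was also called when Luciferase sgRNA replicate 3 was left out. More cells making a transcript and more of it per cell cannot be told apart in such bulk libraries.

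Among markers of other cells, the 6 blood and endothelial genes summed to between 5.92 and 7.70 FPKM with HAND1 sgRNA, against 4.26 to 5.19 FPKM with Luciferase sgRNA. Most of it was CD68, a lysosomal protein abundant in macrophages, at 5.35, 6.68 and 6.35 FPKM with HAND1 sgRNA and 3.92, 4.75 and 3.52 FPKM with Luciferase sgRNA. The endothelial cadherin CDH5 was at 0.158, 0.448 and 0.423 FPKM with HAND1 sgRNA, against 0.119, 0.0543 and 0.178 FPKM with Luciferase sgRNA, which overlap. LYVE1, of lymphatic endothelium, was at 0.318, 0.474 and 0.183 FPKM with HAND1 sgRNA, against 0.205, 0.328 and 0.566 FPKM with Luciferase sgRNA, which overlap as well. The leukocyte marker PTPRC and the endothelial markers PECAM1 and VWF had lower means over the 9 libraries, of 0.0202, 0.0345 and 0.0451 FPKM. The epithelial genes summed to between 0.603 and 0.687 FPKM with HAND1 sgRNA, against 0.463 to 0.877 FPKM with Luciferase sgRNA, and KRT14 and KRT20 were listed at 0 in every library. The part of these markers in the collagen results was not tested.

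COL15A1, a multiplexin proteoglycan of basement membrane zones, had the largest log2 rise of the 19. It was at 19.5, 19.3 and 18.0 FPKM with HAND1 sgRNA, against 8.55, 10.1 and 9.89 FPKM with Luciferase sgRNA. Every HAND1 sgRNA library was far above every control, and the log2 fold change was 0.92 (SE 0.081, adjusted p = 9.77e-05). COL18A1, the related multiplexin whose end fragment is endostatin, averaged 3.23 ± 0.173 FPKM with HAND1 sgRNA and 2.81 ± 0.203 FPKM with Luciferase sgRNA (SD, n = 3 each) and was not called (log2 0.15, 95% interval −0.06 to 0.36, adjusted p = 0.417).

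Both chains of the common type IV network rose. COL4A1 was at 47.3, 41.9 and 46.9 FPKM with HAND1 sgRNA, against 27.4, 29.7 and 32.0 FPKM with Luciferase sgRNA (log2 0.59, SE 0.070, adjusted p = 6.77e-04). COL4A2 was at 45.2, 39.7 and 42.3 FPKM with HAND1 sgRNA, against 29.5, 30.8 and 31.0 FPKM with Luciferase sgRNA (log2 0.46, SE 0.061, adjusted p = 0.00141). Neither gene overlapped between the groups. COL4A5, a chain of a separate type IV network, averaged 6.98 ± 0.198 FPKM with HAND1 sgRNA and 6.55 ± 0.447 FPKM with Luciferase sgRNA, whose libraries overlapped (log2 0.08, 95% interval −0.10 to 0.26, adjusted p = 0.643).

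Among the fibrillar genes, both type V chains rose. COL5A1 was at 38.7, 36.2 and 39.0 FPKM with HAND1 sgRNA, against 25.9, 29.5 and 27.0 FPKM with Luciferase sgRNA (log2 0.45, SE 0.063, adjusted p = 0.00191). COL5A2 was at 12.9, 11.3 and 12.9 FPKM with HAND1 sgRNA, against 8.55, 8.64 and 8.12 FPKM with Luciferase sgRNA (log2 0.50, SE 0.082, adjusted p = 0.0047). COL1A1, the major chain of bone and skin collagen, lay at 6.40, 7.27 and 6.24 FPKM with HAND1 sgRNA, against 4.07, 4.92 and 4.54 FPKM with Luciferase sgRNA. These libraries did not overlap either, but COL1A1 missed the threshold (log2 0.47, SE 0.135, adjusted p = 0.0689). When ETV1 sgRNA libraries were left out of the fit it passed (adjusted p = 0.0296), as it did without ETV1 sgRNA replicate 1 or 3 (0.0332 and 0.0329). COL3A1 had a log2 fold change of 0.12 (95% interval −0.01 to 0.26, adjusted p = 0.295) and COL27A1, a cartilage collagen, one of 0.27 (adjusted p = 0.325).

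The type VI pair rose too. COL6A1 was at 193, 189 and 193 FPKM with HAND1 sgRNA, against 151, 157 and 156 FPKM with Luciferase sgRNA (log2 0.31, SE 0.051, adjusted p = 0.00496). COL6A2 was at 51.3, 45.2 and 50.9 FPKM with HAND1 sgRNA, against 35.8, 36.1 and 33.0 FPKM with Luciferase sgRNA (log2 0.48, SE 0.065, adjusted p = 0.00163). The groups did not overlap for either gene.

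Of the FACIT genes, COL16A1, a minor fibril-associated chain, was at 7.92, 7.45 and 7.95 FPKM with HAND1 sgRNA, against 4.83, 5.47 and 4.19 FPKM with Luciferase sgRNA (log2 0.59, SE 0.113, adjusted p = 0.0107). COL9A1, a type IX chain known best from cartilage, was at 18.2, 17.1 and 17.7 FPKM with HAND1 sgRNA, against 13.04, 13.3 and 14.9 FPKM with Luciferase sgRNA (log2 0.34, SE 0.071, adjusted p = 0.0177). All HAND1 sgRNA libraries were above all controls for both. COL12A1 was at 15.9, 17.0 and 15.2 FPKM with HAND1 sgRNA, against 15.2, 14.2 and 13.6 FPKM with Luciferase sgRNA, nearly touching, and was not called (log2 0.15, 95% interval −0.01 to 0.31, adjusted p = 0.267). The call of COL9A1 was lost without HAND1 sgRNA replicate 1 or 3 (adjusted p = 0.0711 and 0.0649) and without Luciferase sgRNA replicate 1 or 2 (0.0609 and 0.0694). Its partner chains COL9A2 (log2 −0.05, adjusted p = 0.895) and COL9A3 (log2 −0.32, 95% interval −0.80 to 0.16, adjusted p = 0.453) were not called.

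COL14A1, a FACIT gene of dense connective tissue, had a mean of 0.779 FPKM and so was not among the genes tested. It was at 1.08, 1.49 and 1.25 FPKM with HAND1 sgRNA, 0.646, 0.603 and 0.807 FPKM with ETV1 sgRNA and 0.502, 0.338 and 0.295 FPKM with Luciferase sgRNA. No group overlapped another. Without the filter on low values COL14A1 was higher with HAND1 than with Luciferase sgRNA (log2 0.72, SE 0.092, adjusted p = 0.00413). It was the 1 member called among the 24 that the filter had left out and that were not at 0 throughout, and 2.19% of all 17137 genes were called higher in that fit. None of the 24 was called with ETV1 sgRNA against Luciferase sgRNA or with HAND1 sgRNA against ETV1 sgRNA in limma, where 0.07% and 1.16% of all genes were called higher. At an unadjusted p under 0.05, 2 of the 24 were higher and 1 lower with HAND1 sgRNA over Luciferase sgRNA, against 8.67% and 7.73% of all 17137 genes. With ETV1 sgRNA over Luciferase sgRNA 2 were higher and 0 lower, against 4.38% and 3.23%, and with HAND1 sgRNA over ETV1 sgRNA 3 were higher and 2 lower, against 6.63% and 6.44%. COL23A1, a transmembrane collagen, had the lowest fold change of the tested members: it averaged 0.894 ± 0.128 FPKM with HAND1 sgRNA and 1.43 ± 0.326 FPKM with Luciferase sgRNA (SD, n = 3 each), without overlap, and was not called (log2 −0.36, adjusted p = 0.145). COL26A1 had a log2 fold change of −0.15 (95% interval −0.33 to 0.03, adjusted p = 0.345).

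By class, 2 of 5 tested fibrillar genes rose (median log2 0.45), 2 of 3 basement membrane genes (median 0.46), 2 of 5 FACIT genes (median 0.15) and 3 of 6 other genes (median 0.23). The median was 0.31 over the 19 collagens and −0.01 over all genes tested. All 3 HAND1 sgRNA values lay above all 3 control values for 14 of the 19, including each of the 5 fibrillar genes, and below them for COL23A1, against 13% and 12.7% of all genes tested. HAND1 sgRNA replicate 2 was the lowest of its group for 8 of the 9 genes that rose, with COL15A1 as the exception. It still lay above every control library for each of these genes. Transcripts of at least 5000 nt (3144 genes) were also lower in that library, at a median log2 difference of −0.033 from the rest of its group. The part of transcript length in these values was not tested. Classes were not tested against each other.

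**Figure D3:**
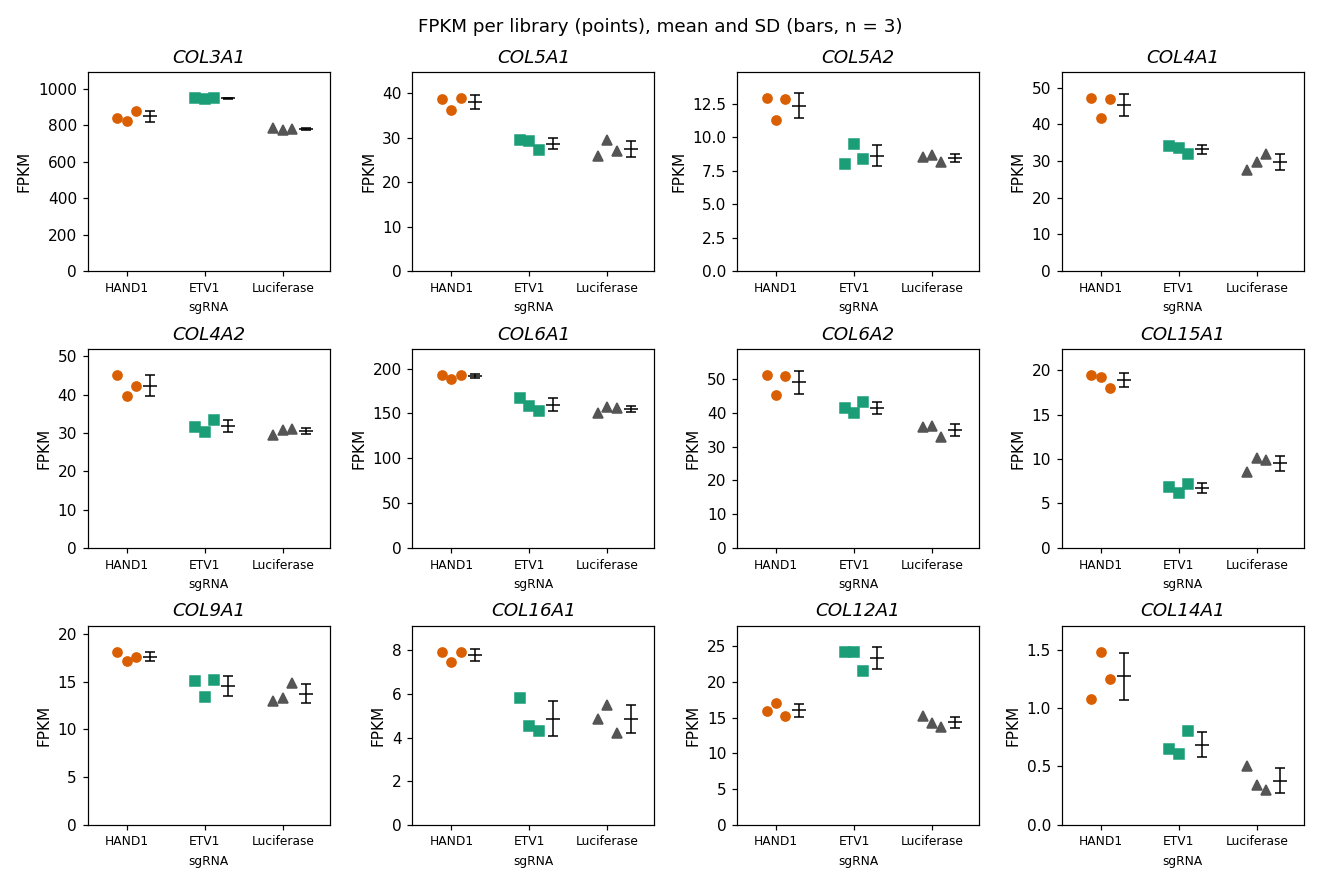
FPKM in each library (points) with mean and SD (bars, n = 3) for COL3A1, for the 10 collagen genes called in at least 1 comparison and for COL14A1, with the groups in the order HAND1, ETV1 and Luciferase sgRNA and each axis starting at 0. COL15A1 stands at 18.0 to 19.5 FPKM with HAND1 sgRNA, against 8.55 to 10.1 FPKM with Luciferase sgRNA, and COL12A1 is highest with ETV1 sgRNA.

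ETV1 sgRNA was then compared with Luciferase sgRNA, to see the same for ETV1. COL12A1, a FACIT collagen of tendon, ligament and other load-bearing tissue, rose, and it was the 1 of 19 tested collagens that was called. COL12A1 was at 24.3, 24.2 and 21.5 FPKM with ETV1 sgRNA, against 15.2, 14.2 and 13.6 FPKM with Luciferase sgRNA. All ETV1 sgRNA libraries lay above all controls, by a log2 fold change of 0.66 (SE 0.070, adjusted p = 0.00306). Among all genes tested 0.203% were called, 0.141% higher and 0.0617% lower. No collagen was called lower in limma, and at an unadjusted p under 0.05, which 8.2% of all genes met, there were 4 higher and 1 lower.

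That 1 lower gene was COL15A1, at 6.87, 6.15 and 7.17 FPKM with ETV1 sgRNA, against 8.55, 10.1 and 9.89 FPKM with Luciferase sgRNA. The libraries did not overlap, but COL15A1 missed the threshold (log2 −0.44, SE 0.081, adjusted p = 0.0819). COL3A1 likewise did not overlap, at 947.6 ± 3.02 FPKM with ETV1 sgRNA and 779 ± 4.68 FPKM with Luciferase sgRNA (SD, n = 3 each; log2 0.28, SE 0.060, adjusted p = 0.18). It was called when the dependence on transcript length was removed from each library (log2 0.28, adjusted p = 0.0274). COL6A2 averaged 41.5 ± 1.70 FPKM with ETV1 sgRNA and 35.0 ± 1.73 FPKM with Luciferase sgRNA, again without overlap (log2 0.24, adjusted p = 0.311).

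The other chains that rose with HAND1 sgRNA were not called with ETV1 sgRNA. COL4A1 and COL4A2 had log2 fold changes of 0.16 (95% interval 0.00 to 0.31) and 0.06 (−0.08 to 0.19), COL5A1 and COL5A2 of 0.06 (−0.08 to 0.20) and 0.02 (−0.16 to 0.21), and COL6A1 of 0.04 (−0.07 to 0.16). COL9A1 and COL16A1 had log2 fold changes of 0.08 (−0.08 to 0.24) and 0.01 (−0.24 to 0.26). By class the medians were 0.06 for 5 fibrillar, 0.06 for 3 basement membrane, 0.08 for 5 FACIT and −0.07 for 6 other genes. The median was 0.04 over the 19 collagens and −0.01 over all genes tested. In 3 of the 19 all ETV1 sgRNA values lay above all control values and in 1 below, against 6.88% and 6% of all genes tested. The comparisons of HAND1 and of ETV1 sgRNA share the Luciferase sgRNA libraries. The blood and endothelial markers summed to between 4.93 and 5.985 FPKM with ETV1 sgRNA, against 4.26 to 5.19 FPKM with Luciferase sgRNA, which overlap.

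**Figure D4:**
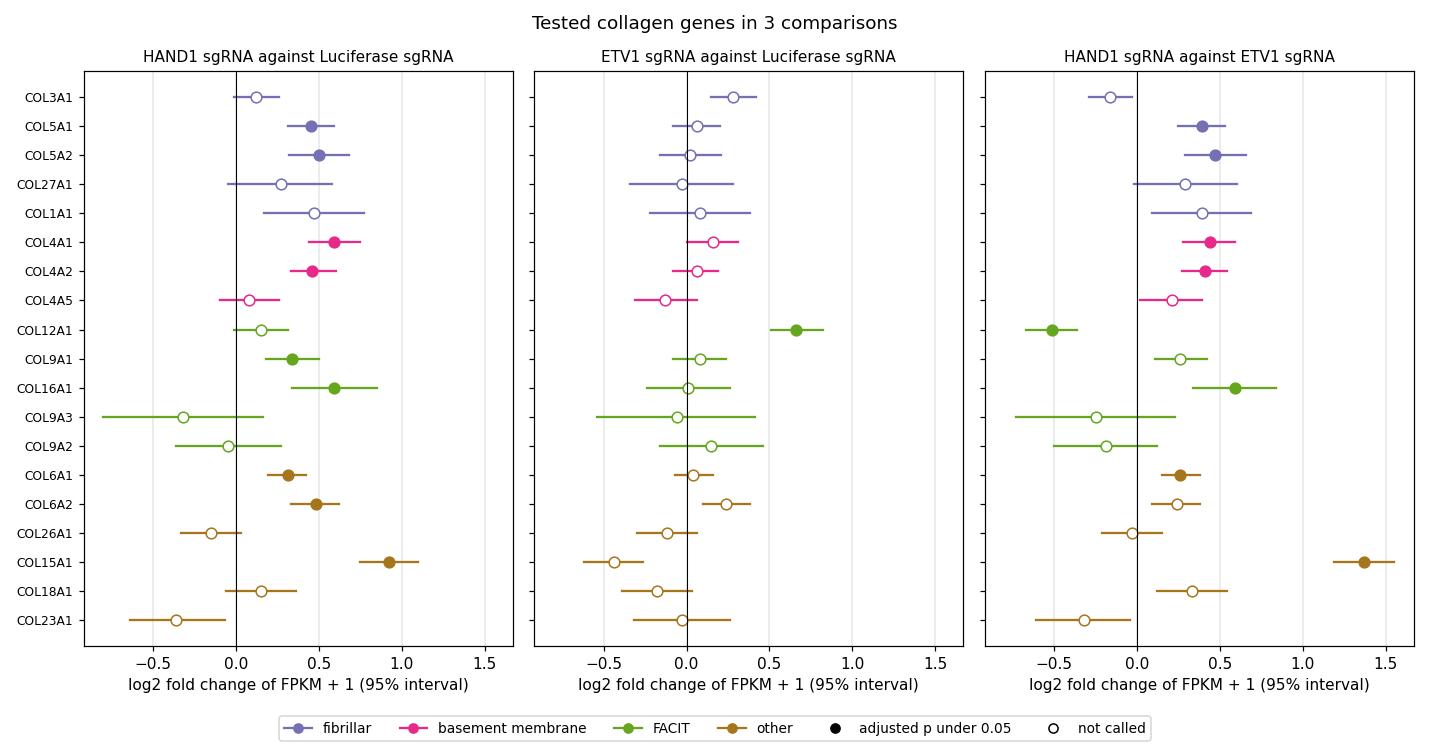
Log2 fold change of FPKM + 1 with its 95% interval (lines) for the 19 tested collagen genes, coloured by class, with 1 panel for each of the sgRNAs against the Luciferase control and 1 for HAND1 over ETV1. Filled points passed an adjusted p of 0.05: 9 genes in the first panel, COL12A1 in the second and 8 genes in the third.

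HAND1 sgRNA was last compared with ETV1 sgRNA, a direct test of the difference between them. The control libraries enter it through the shared estimate of spread and through the mean FPKM by which genes were filtered. COL15A1, COL16A1, COL4A1, COL4A2, COL5A1, COL5A2 and COL6A1 were higher with HAND1 sgRNA and COL12A1 was lower, which made 8 of 19 called, 7 higher and 1 lower. Over all genes tested 4.05% were called, 2.01% higher and 2.04% lower. At an unadjusted p under 0.05, which 15.4% of all genes met, 12 collagens were higher and 3 lower. For 12 of the 19 all HAND1 sgRNA values lay above all ETV1 sgRNA values and for 3 below, against 10.9% and 11.5% of all genes tested. COL15A1 differed most, with a mean of 18.9 ± 0.787 FPKM with HAND1 sgRNA and 6.73 ± 0.524 FPKM with ETV1 sgRNA (SD, n = 3 each; log2 1.37, SE 0.081, adjusted p = 7.28e-06). COL12A1 averaged 16.0 ± 0.916 FPKM with HAND1 sgRNA and 23.3 ± 1.55 FPKM with ETV1 sgRNA (log2 −0.51, SE 0.070, adjusted p = 0.00253). COL15A1 and COL12A1 thus differed in opposite directions. By class, 2 of 5 fibrillar (median log2 0.39), 2 of 3 basement membrane (median 0.41), 1 of 5 FACIT (median −0.19) and 2 of 6 other genes (median 0.25) were called higher, and the 1 lower gene was FACIT. The median was 0.26 over the 19 collagens and −0.00 over all genes tested.

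With ETV1 sgRNA, COL4A1 was at 34.2, 33.6 and 31.9 FPKM and COL4A2 at 31.6, 30.3 and 33.4 FPKM. COL5A1 was at 29.6, 29.3 and 27.2 FPKM and COL5A2 at 7.997, 9.52 and 8.35 FPKM. COL6A1 was at 167, 159 and 153 FPKM and COL16A1 at 5.80, 4.52 and 4.30 FPKM. For each of these 6 genes every ETV1 sgRNA library lay below every HAND1 sgRNA library.

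For the chain pairs, COL4A1 and COL4A2 were higher with HAND1 sgRNA by 0.44 and 0.41 (log2; adjusted p = 0.00606 and 0.00439). COL5A1 and COL5A2 were higher by 0.39 and 0.47 (adjusted p = 0.00606 and 0.00864). COL6A1 was higher by 0.26 (adjusted p = 0.0156), while COL6A2, at 0.24, missed the threshold (adjusted p = 0.0776). COL16A1 was higher by 0.59 (adjusted p = 0.0157). The calls of COL16A1 and COL6A1 were lost without ETV1 sgRNA replicate 2 (adjusted p = 0.0687 and 0.0675) or 3 (0.0676 and 0.073) and without HAND1 sgRNA replicate 1 (0.0681 and 0.0696) or 3 (0.0677 and 0.0737). COL3A1, COL9A1 and COL18A1 were not called (log2 −0.16, 0.26 and 0.33, adjusted p = 0.226, 0.0764 and 0.0908). COL9A1 passed with median centring (adjusted p = 0.0474) and without Luciferase sgRNA replicate 3 (0.0469), COL18A1 without the intensity trend (0.0341), and COL6A2 without HAND1 sgRNA replicate 2 (0.0471) or Luciferase sgRNA replicate 3 (0.0475).

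Summed over all 44 genes, collagen FPKM was 1339 ± 39.0 with HAND1 sgRNA, 1348 ± 16.4 with ETV1 sgRNA and 1157 ± 3.70 with Luciferase sgRNA (SD, n = 3 each). Without COL3A1 the sums were 491 ± 13.6 FPKM with HAND1 sgRNA, 401 ± 13.9 FPKM with ETV1 sgRNA and 378 ± 8.35 FPKM with Luciferase sgRNA. Fibrillar genes held 68.3% of collagen FPKM with HAND1 sgRNA, 74.0% with ETV1 sgRNA and 71.5% with Luciferase sgRNA. The ratio of COL15A1 to COL18A1 averaged 5.875 ± 0.422 with HAND1 sgRNA, 2.87 ± 0.325 with ETV1 sgRNA and 3.385 ± 0.188 with Luciferase sgRNA. It is as uncertain as the values of COL18A1, which overlaps SLC19A1. Basement membrane chains summed to 94.9 ± 5.50 FPKM with HAND1 sgRNA, 71.3 ± 1.56 FPKM with ETV1 sgRNA and 67.2 ± 2.97 FPKM with Luciferase sgRNA. These sums are descriptions of the members and were not tested.

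Genes that make, export, process and bind collagen were examined beside the chains. Of 17 tested genes for hydroxylation and folding, such as the prolyl hydroxylase P4HA1, the lysyl hydroxylase PLOD2 and the chaperone SERPINH1, 0 were called in limma in any of the 3 comparisons. Over all genes tested, 6.6% were called with HAND1 sgRNA, 0.203% with ETV1 sgRNA and 4.05% between the sgRNAs. At an unadjusted p under 0.05 these shares were 20.3%, 8.2% and 15.4%. Of the 17, 2 were higher and 4 lower at that unadjusted p with HAND1 sgRNA against Luciferase sgRNA. With ETV1 sgRNA these counts were 0 and 0, and between the sgRNAs 1 and 2. Of 13 export genes, such as the procollagen cargo receptor MIA3, 0 were called in any comparison, and 2 were lower at an unadjusted p with HAND1 sgRNA against Luciferase sgRNA and 2 against ETV1 sgRNA, with none higher. The medians of both lists lay between −0.02 and 0.01 (log2), close to those of all genes tested.

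Of 10 tested genes for procollagen processing and crosslinking, 3 rose with HAND1 sgRNA over Luciferase sgRNA and 0 fell. Over all genes tested 3.67% were called higher and 2.93% lower. At an unadjusted p under 0.05, which 20.3% of all genes met, 3 of the list were higher and 1 lower. The median log2 of the list was −0.02, against −0.01 over all genes tested. The 3 called genes are all lysyl oxidase-like enzymes, which crosslink collagen and elastin. LOXL1 was at 23.4, 24.3 and 25.7 FPKM with HAND1 sgRNA, against 15.3, 15.1 and 17.5 FPKM with Luciferase sgRNA (log2 0.59, SE 0.088, adjusted p = 0.0029). LOXL3 (log2 0.34, adjusted p = 0.0203) and LOXL4 (log2 0.39, adjusted p = 0.0229) also rose. Their family member LOXL2 lay at 5.85 ± 0.452 FPKM with HAND1 sgRNA and 7.91 ± 0.789 FPKM with Luciferase sgRNA and was not called (SD, n = 3 each; log2 −0.38, adjusted p = 0.0772). The call of LOXL3 was lost without HAND1 sgRNA replicate 1 or 3 (adjusted p = 0.0759 and 0.0827) or Luciferase sgRNA replicate 1 or 2 (0.0671 and 0.054), and with only 2 groups fitted (0.0587). That of LOXL4 was lost without HAND1 sgRNA replicate 1 or 3 (0.0725 and 0.0974) or Luciferase sgRNA replicate 2 or 3 (0.0585 and 0.0744), and with only 2 groups fitted or the replicate block (0.0517 each).

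Of 5 tested collagen receptors and uptake genes, only ITGA11 was called higher with HAND1 sgRNA over Luciferase sgRNA and 0 were called lower. Over all genes tested these shares were 3.67% and 2.93%. At an unadjusted p under 0.05, which 20.3% of all genes met, 3 of the 5 were higher and 0 lower. The median log2 of these receptor genes was 0.25, against −0.01 over all genes tested. ITGA11 encodes the integrin subunit that pairs with ITGB1 to bind fibrillar collagen. ITGA11 was at 13.2, 12.1 and 13.4 FPKM with HAND1 sgRNA, against 8.88, 8.19 and 7.45 FPKM with Luciferase sgRNA, without overlap (log2 0.60, SE 0.083, adjusted p = 0.00181). ITGB1 averaged 74.0 ± 3.32 FPKM with HAND1 sgRNA and 62.0 ± 5.66 FPKM with Luciferase sgRNA and was not called (SD, n = 3 each; log2 0.25, adjusted p = 0.061). With ETV1 sgRNA 0 of 10 processing genes and 0 of 5 receptor genes were called in limma, where 0.203% of all genes were called. LOXL1 (log2 0.37, adjusted p = 0.225) and ITGA11 (log2 0.32, adjusted p = 0.271) were each the 1 higher gene of their list at an unadjusted p under 0.05. Of all genes, 8.2% met that unadjusted p. Between the sgRNAs 1 of 10 processing genes and 0 of 5 receptor genes were called, against 4.05% of all genes tested. At an unadjusted p under 0.05, which 15.4% of all genes met, 4 processing genes were higher and 1 lower. Of the receptor genes 3 were higher and 0 lower. The list medians were 0.03 and 0.21 (log2), against −0.00 over all genes tested. The called gene was LOXL4, higher with HAND1 than with ETV1 sgRNA (log2 0.38, adjusted p = 0.0398). Its call was lost without any 1 library other than Luciferase sgRNA replicate 3 (adjusted p from 0.057 to 0.156), and under 5 other alternatives.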

How the data were processed

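The authors deposited 1 table of FPKM with 1 value per gene symbol and library. STAR, Cufflinks and hg19 are named, without versions or parameters, per the submitters' processing notes, and the kit did not keep strand, per the labels' protocols. The sources used here do not give the annotation or the scaling between libraries. FPKM are not counts, so no count model was used and absolute depth is unknown. Relative depth, read from the steps of low values, ran from 0.636 (ETV1 sgRNA replicate 2) to 1 (Luciferase sgRNA replicate 1). Values below 1e-06 were read as 0.

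The 11348 genes whose mean over the 9 libraries reached 1 FPKM were fitted as log2(FPKM + 1) with limma 3.58.1 in R 4.3.3, with group as the only term, an intensity trend and all 9 libraries (6 residual degrees of freedom, with 4.15 added by the prior). All tests are two-sided, with Benjamini-Hochberg adjustment over all genes tested; a pseudocount of 1 understates changes of low genes. The fit was also run on simulated data with independent noise. Its outcome is not reported here, so no recovery rate is claimed for changes of the size seen in collagens. All called collagens, COL12A1, COL15A1, the 2 most abundant members of a class and up to 4 called genes of a list were named; values of COL14A1, COL1A1, COL23A1, LOXL2 and ITGB1 were seen before these genes were singled out. The members and lists were chosen with earlier results of these data known. Transcript lengths (GENCODE 29, longest transcript) were matched for 10551 genes (93.0%). Promoters were matched for 14 of 19 tested members. Alternatives are listed in the closing section. A further marker list is not reported here.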

Additional observations from a re-analysis of the deposited data

How the results depend on the processing

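The counts of collagen genes called were compared under pseudocounts of 0.1 and 5, a minimum mean of 5 FPKM in place of 1 or none at all, centring on the median, quantile normalization, removal of the transcript length trend, no intensity trend, only the 2 groups compared, the replicate number as a block, and without each library. For HAND1 sgRNA against Luciferase sgRNA 9 or 10 collagens were higher under these settings and 8 to 10 when 1 library was left out, with 0 lower throughout. For ETV1 sgRNA the count was 1, and 2 with the length trend removed, where COL3A1 was added. For HAND1 sgRNA against ETV1 sgRNA it was 7 or 8 higher (5 to 9 without 1 library) and 1 lower. With the replicate block 9, 1 and 7 collagens were higher, and all genes called were 632, 16 and 364 (HAND1 sgRNA, ETV1 sgRNA, then HAND1 over ETV1 sgRNA). No collagen call was lost with the block. Deviations of same-numbered libraries from their group means correlated with r between −0.146 and 0.138, and not every library correlated best with its own number, so the numbers were not taken as pairs. Over all genes, calls with ETV1 sgRNA were 23, 14 with only the 2 groups compared, and 11 to 26 without 1 library. Without 1 library, HAND1 sgRNA gave 433 to 730 calls (749 with all) and HAND1 against ETV1 sgRNA 271 to 583 (460 with all). Without Luciferase sgRNA replicate 3, 9 collagens were higher with HAND1 sgRNA and 1 with ETV1 sgRNA. COL15A1, COL4A1, COL4A2, COL5A1 and COL5A2 kept each of their calls under all 19 alternatives, as did COL12A1 and COL6A2.

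Changes of sign occurred only among uncalled values, when 1 library was left out. With ETV1 sgRNA the log2 ranges were −0.10 to 0.09 for COL16A1, −0.06 to 0.22 for COL1A1, −0.14 to 0.05 for COL23A1, −0.16 to 0.14 for COL27A1, −0.04 to 0.07 for COL5A2, −0.25 to 0.08 for COL9A3 and −0.03 to 0.05 for LOXL4. COL9A2 ranged from −0.12 to 0.04 with HAND1 sgRNA, and COL26A1 from −0.07 to 0.01 between the sgRNAs. For the other changes the cause was not tested. Absolute depth is unknown, so no limit can be set on differences among members below 1 FPKM.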
